A study of Mus musculus with 5 samples.

Results

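The antibody light chain carries a variable (V) domain, and the gene table of this series holds 107 rows whose names mark them as light chain V genes, among 38924 rows in all. They were taken by name, as every row beginning with IGKV or IGLV and a number. Of these, 104 belong to the kappa locus and 3 to the lambda locus (IGLV1, IGLV2 and IGLV3). All 107 names matched the GENCODE M21 annotation, which places the kappa genes on chromosome 6 and the lambda genes on chromosome 16 and lists 8 of them as pseudogenes.

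The samples were germinal center B cells sorted from the spleens of 12-week-old mice at day 7 after immunization with sheep red blood cells (SRBC), which start a germinal center response. WT is the control group of Cg1-Cre mice (n = 3), and DKO is the group of relb fl/fl nfkb2 fl/fl Cg1-Cre littermates (n = 2), in which both alternative NF-κB genes are floxed. Both groups carry the Cre, which is driven from the IgG1 constant region locus and acts in B cells that transcribe it, so cells without recombination can remain in a DKO sample; the series title calls the cells eGFP+. The labels do not say whether replicates are separate mice, so p-values measure the spread between these samples, which may be technical.

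A B cell joins 1 V gene to a joining (J) segment and transcribes the product with a constant (C) region, first at the kappa locus and, where that fails to give a usable chain, often at the lambda locus. Light chain V genes fall into families by sequence, and part of the mouse kappa V genes lie in the opposite orientation to the J segments, so that they join by inversion rather than deletion. In mice IGLV1 is joined to IGLC1 or IGLC3, while IGLV2 and IGLV3 are mostly joined to IGLC2. Germinal center B cells are selected by the affinity of the receptor that both chains form, and V usage in them reflects the clones present.

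Within a family the V genes resemble each other closely, which bears on how reads of 50 bases are assigned, and the germline sequences of the genes on which the results turn are shown for that reason. They are the coding parts of the V exons in GENCODE M21 (build GRCm38), 5′ to 3′ in the gene's own direction, up to the first 300 bases. Capitals mark the positions at which the genes shown together are not all alike. The lambda pair comes first.
IGLV1 (chr16:19085022-19085321, minus strand): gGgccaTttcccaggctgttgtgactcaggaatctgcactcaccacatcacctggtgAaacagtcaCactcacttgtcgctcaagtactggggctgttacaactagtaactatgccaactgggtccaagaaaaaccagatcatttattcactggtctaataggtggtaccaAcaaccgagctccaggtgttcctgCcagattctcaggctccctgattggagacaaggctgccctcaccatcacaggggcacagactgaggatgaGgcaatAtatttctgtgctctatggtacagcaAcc
IGLV2 (chr16:19260406-19260705, minus strand): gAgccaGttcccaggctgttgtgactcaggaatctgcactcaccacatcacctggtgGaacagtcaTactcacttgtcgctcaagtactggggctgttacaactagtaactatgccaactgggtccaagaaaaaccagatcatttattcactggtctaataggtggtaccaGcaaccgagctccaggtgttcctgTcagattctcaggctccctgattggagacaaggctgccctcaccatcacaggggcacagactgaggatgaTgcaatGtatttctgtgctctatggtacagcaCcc
IGLV1 and IGLV2 differed at 9 of 305 bases, whereas IGLV3 was 54.0% identical to IGLV1. Next are 3 genes of family 1, namely the most used kappa gene of both DKO libraries, the gene most like it in sequence and a gene with lower levels in DKO.
IGKV1-110 (chr6:68270955-68271254, plus strand): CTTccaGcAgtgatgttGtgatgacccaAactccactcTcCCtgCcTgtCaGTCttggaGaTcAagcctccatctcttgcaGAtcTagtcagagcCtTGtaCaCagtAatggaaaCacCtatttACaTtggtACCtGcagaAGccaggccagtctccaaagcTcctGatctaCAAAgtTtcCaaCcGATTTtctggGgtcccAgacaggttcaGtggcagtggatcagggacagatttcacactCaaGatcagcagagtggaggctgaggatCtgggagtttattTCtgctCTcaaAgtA
IGKV1-117 (chr6:68121515-68121814, plus strand): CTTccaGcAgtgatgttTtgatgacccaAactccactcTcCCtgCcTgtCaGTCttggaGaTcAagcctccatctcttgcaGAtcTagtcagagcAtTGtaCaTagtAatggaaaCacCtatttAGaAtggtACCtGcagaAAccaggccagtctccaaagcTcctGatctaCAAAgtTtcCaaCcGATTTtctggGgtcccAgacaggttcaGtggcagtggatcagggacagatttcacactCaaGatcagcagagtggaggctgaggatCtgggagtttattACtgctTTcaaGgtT
IGKV1-135 (chr6:67610196-67610495, plus strand): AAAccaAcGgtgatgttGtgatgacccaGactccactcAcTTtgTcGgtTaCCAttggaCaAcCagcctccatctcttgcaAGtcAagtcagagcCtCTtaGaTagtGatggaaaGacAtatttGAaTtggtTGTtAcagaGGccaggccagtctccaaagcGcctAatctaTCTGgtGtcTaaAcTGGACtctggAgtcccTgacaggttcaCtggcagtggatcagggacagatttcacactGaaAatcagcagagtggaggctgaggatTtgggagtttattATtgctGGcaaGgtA
IGKV1-110 and IGKV1-117 differed at 10 of 313 bases, and IGKV1-110 and IGKV1-135 at 62. The last set holds 3 abundant genes of family 6.
IGKV6-15 (chr6:70406469-70406766, minus strand): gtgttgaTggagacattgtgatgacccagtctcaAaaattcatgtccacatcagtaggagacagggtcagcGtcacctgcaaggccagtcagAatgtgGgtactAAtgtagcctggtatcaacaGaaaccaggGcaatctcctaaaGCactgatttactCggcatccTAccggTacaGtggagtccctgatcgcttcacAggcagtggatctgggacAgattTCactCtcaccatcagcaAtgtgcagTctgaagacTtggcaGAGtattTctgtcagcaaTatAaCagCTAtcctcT
IGKV6-17 (chr6:70371696-70371993, plus strand): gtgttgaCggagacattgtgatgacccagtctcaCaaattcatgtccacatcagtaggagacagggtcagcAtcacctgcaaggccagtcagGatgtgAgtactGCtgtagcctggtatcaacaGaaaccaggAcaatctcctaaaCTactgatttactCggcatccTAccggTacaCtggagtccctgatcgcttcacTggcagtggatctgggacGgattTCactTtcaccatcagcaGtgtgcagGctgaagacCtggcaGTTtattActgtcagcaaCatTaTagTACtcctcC
IGKV6-25 (chr6:70215660-70215957, plus strand): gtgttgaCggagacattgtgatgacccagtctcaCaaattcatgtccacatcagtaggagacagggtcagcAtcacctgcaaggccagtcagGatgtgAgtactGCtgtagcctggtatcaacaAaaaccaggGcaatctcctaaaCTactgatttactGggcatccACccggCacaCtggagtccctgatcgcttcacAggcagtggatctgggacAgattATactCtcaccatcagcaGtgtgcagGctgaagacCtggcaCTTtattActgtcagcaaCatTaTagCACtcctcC
IGKV6-17 and IGKV6-25 differed at 13 of 298 bases, and IGKV6-15 differed from them at 27 and 30 bases. Over all members, 28 pairs holding 43 genes were at least 95% identical, and the median member had 78.6% of its 50-base words in no other member. In 26 members every such word was unique, IGLV3 among them, and the lowest share of unique words was 25.7%, for IGKV4-59. How the reads of near-identical genes were divided is not given in the sources used here. Sums over some of these pairs are therefore given beside the single genes.

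The libraries held 33953377 to 57582464 reads in all and 15.4 to 17.7 M outside the mitochondrial genome, of which 9782 to 11864 were light chain V reads. The targeted gene RELB, the transcription factor of the alternative NF-κB pathway, was at 136, 171 and 117 normalized counts in WT compared with 56.9 and 10.7 in DKO. NFKB2, whose p52 product pairs with RELB, was at 657, 601 and 445 in WT compared with 298 and 73.5 in DKO. Both were lower in each DKO library than in any WT library, and DKO replicate 1 kept more of both than DKO replicate 2 did. Their log2 fold changes of −2.43 ± 0.63 and −1.91 ± 0.51 (SE) did not pass the limma test across 13242 genes (adjusted p = 0.823 for both), in which 0% of genes were called at an adjusted p under 0.05. BCL6, the transcription factor that directs the germinal center state and a marker of the sorted cells, ran from 9681 to 11763 normalized counts. RGS13, a regulator of G protein signaling known from germinal center B cells, was lower in DKO without overlap, with WT libraries at 8381, 3777 and 4727 and DKO libraries at 1476 and 1990 (log2 fold change −1.63 ± 0.33, limma adjusted p = 0.768, DESeq2 adjusted p = 0.00131). FAS, S1PR2, GCSAM and MYBL1, further markers of these cells, overlapped between the groups. The part of these markers in the results was not tested. Naive follicular B cell markers summed to 4355, 16627 and 7832 in WT compared with 14360 and 6686 in DKO, and T cell markers to 82.4, 780 and 48.0 in WT compared with 439 and 111 in DKO, so that WT replicate 2 and DKO replicate 1 stood apart together. Their part in the results was not tested, and values without these 2 libraries are given beside the sums.

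Light chain V transcripts were less abundant in the DKO libraries. Their summed level was 11915, 11077 and 11401 normalized counts in WT compared with 8889 and 8080 in DKO. The groups did not overlap: the mean was 11464 ± 423 (SD, n = 3) in WT compared with 8484 ± 573 (SD, n = 2) in DKO, or 74.0% of WT. The difference of −0.44 on the log2 scale was larger than the spread within WT (SD 0.053). An exact two-sided permutation test gave p = 0.2, which is the smallest value that 3 against 2 libraries allow. The difference was of similar size without the scaling of the deposited values: per M reads outside the mitochondrial genome, light chain V reads numbered 723, 694 and 767 in WT compared with 573 and 556 in DKO, or 77.6% of WT. Without WT replicate 2 and DKO replicate 1, the log2 difference of the summed level was −0.53, with 56 of 78 tested members below 0.

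Kappa and lambda sums were both lower in DKO. The kappa sum was 9257, 8372 and 9188 in WT compared with 6904 and 6466 in DKO (74.8% of WT), and the lambda sum was 2658, 2705 and 2213 in WT compared with 1985 and 1613 in DKO (71.2% of WT). Neither overlapped between the groups, and each gave p = 0.2 in the exact permutation test. Heavy chain V rows, 114 in number, summed to 3826, 4888 and 5394 in WT compared with 4573 and 4059 in DKO, so that the groups overlapped. The light chain V level per 100 of heavy chain V level was 311, 227 and 211 in WT compared with 194 and 199 in DKO, lower in DKO without overlap (exact permutation p = 0.2), with WT replicate 1 far above the other libraries.

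The lambda share of the summed light chain V level did not separate the groups. It was 22.3%, 24.4% and 19.4% in WT compared with 22.3% and 20.0% in DKO. The means were 22.0% ± 2.52 (SD, n = 3) and 21.1% ± 1.67 (SD, n = 2), and the exact permutation test gave p = 1. The difference of −0.90 percentage points became 0.289 without WT replicate 2 and 0.285 without DKO replicate 2. Counting error alone was smaller than this spread: the 95% Wilson intervals ran from 21.5% to 23.1% in WT replicate 1, from 23.6% to 25.2% in WT replicate 2 and from 18.7% to 20.1% in WT replicate 3. Such intervals cover counting error only, since amplified reads without molecular identifiers are not independent molecules. The DKO libraries lay between WT replicates 2 and 3. Among the 99 members with a coding V exon, these exons are 294 to 324 bases long, and dividing by their length gave lambda shares of 22.2%, 24.4%, 19.4%, 22.2% and 19.9% in the same order of libraries.

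**Figure D1:**
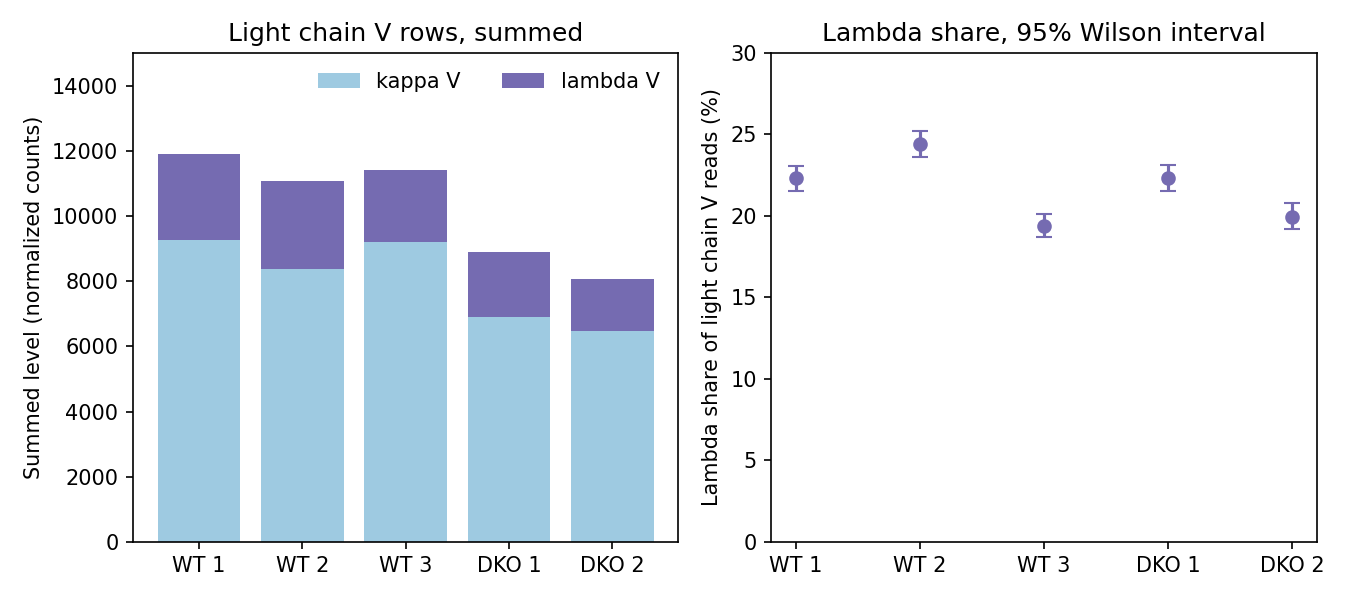
Left, summed level of light chain V rows in normalized counts for each library, split into kappa and lambda rows; right, lambda share of light chain V reads in percent with 95% Wilson intervals. The 3 WT bars lie between 11077 and 11915 and the DKO bars at 8889 and 8080, whereas the lambda shares of both groups lie between 19.4% and 24.4%.

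The constant and joining segments gave a partly different picture. IGKC, the kappa constant region, was at 35717, 27827 and 32541 normalized counts in WT compared with 25439 and 24845 in DKO. Its groups did not overlap, but the log2 fold change of −0.34 ± 0.23 (SE) did not pass (limma adjusted p = 0.877). Kappa V reads per 100 IGKC reads were 25.9, 30.1 and 28.2 in WT compared with 27.1 and 26.03 in DKO, with overlap. IGLC2, the constant region joined to IGLV2 and IGLV3, was at 1336, 1575 and 864 in WT compared with 1346 and 694 in DKO, with overlap (log2 fold change −0.34 ± 0.34, limma adjusted p = 0.900). IGLV2 and IGLV3 reads together numbered 47.7, 50.8 and 56.2 per 100 IGLC2 reads in WT compared with 49.6 and 57.5 in DKO. In every library this was above the kappa V reads per 100 IGKC reads, a difference whose cause was not tested. Shares of V reads therefore need not equal the shares of kappa and lambda chains in use. The other lambda constant genes and the lambda joining segments, 7 of the 14 genes listed, were not analysed here. As a share of IGLC2 and IGKC reads together, IGLC2 held 3.61%, 5.36% and 2.59% in WT compared with 5.03% and 2.72% in DKO, with overlap.

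The 5 kappa J rows summed to 5295, 4462 and 4571 in WT compared with 4647 and 3785 in DKO, with overlap. IGKJ5 and IGKJ1 had the most reads and IGKJ3 the fewest, and whether J reads came from joined segments was not tested. IGKJ3 held 1.40%, 2.45% and 1.45% of kappa J reads in WT compared with 3.47% and 2.71% in DKO. That share was higher in both DKO libraries than in any WT library, and the IGKJ1 share was lower in both (27.8%, 29.5% and 28.3% against 26.3% and 27.5%); both gave p = 0.2 in the exact permutation test. The shares of IGKJ2, IGKJ4 and IGKJ5 overlapped between the groups, with IGKJ4 at 20.3% in DKO replicate 1 against 15.6% to 17.4% in the other libraries.

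Usage was spread unevenly over the 107 rows. Of them, 106 had at least 1 read in some library, 90 had reads in all 5, and IGKV19-93, the sole member of its family, was listed at 0 throughout. A count of 0 allows a share of up to 0.0307% in DKO replicate 2, the library with the fewest light chain V reads. The 24 genes with a mean share of at least 1% made up 77.5% of the total, while 29 genes were under 0.1%. Ranked by mean share, 21 of the 23 neighbouring pairs among them differed by less than the larger of their SDs over the WT libraries, and the exceptions were IGLV1 over IGKV1-110 and IGKV10-96 over IGLV2. Among the 24 genes, the coefficient of variation of the share over the 3 WT libraries ran from 6.81% for IGLV1 to 59.5% for IGKV3-4, with a median of 25.8%. Across members, the mean share had a Spearman rho of −0.21 with the share of unique 50-base words, a description over genes that share the same libraries.

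IGLV1 held the largest share of light chain V reads in every library. It was at 2021, 1906 and 1728 normalized counts in WT compared with 1318 and 1214 in DKO. Both DKO libraries lay below all 3 WT libraries, at 67.2% of the WT mean, with a log2 fold change of −0.57 ± 0.19 (SE, limma adjusted p = 0.823). Its share of light chain V reads was 17.0%, 17.2% and 15.2% in WT compared with 14.8% and 15.03% in DKO, also without overlap (exact permutation p = 0.2). IGLV3 was at 439, 588 and 382 normalized counts in WT compared with 546 and 311 in DKO, and IGLV2 at 198, 212 and 103 in WT compared with 122 and 87.6 in DKO. Both overlapped, with log2 fold changes of −0.16 ± 0.31 and −0.65 ± 0.40. Within lambda, IGLV1 held 76.0%, 70.4% and 78.1% in WT compared with 66.4% and 75.3% in DKO, and IGLV3 held 16.5%, 21.7% and 17.3% in WT compared with 27.5% and 19.3% in DKO, so DKO replicate 1 had the most IGLV3 and the least IGLV1. Since IGLV1 and IGLV2 are near-identical, their summed share was taken as well: it was 18.6%, 19.1% and 16.1% in WT compared with 16.2% and 16.1% in DKO, which overlapped, whereas the summed level (2219, 2117 and 1831 against 1440 and 1302) did not.

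IGKV1-110 came next by mean share over the 5 libraries, and its share was higher in DKO. In WT its mean share stood below those of IGKV6-15, IGKV1-135 and IGKV6-17, and the most used kappa gene was IGKV6-15 in WT replicates 1 and 3 and IGKV6-17 in WT replicate 2. It was at 470, 628 and 690 normalized counts in WT compared with 701 and 683 in DKO, so its level overlapped (log2 fold change 0.23 ± 0.24, limma adjusted p = 0.902). As a share of light chain V reads it held 3.94%, 5.67% and 6.05% in WT compared with 7.88% and 8.45% in DKO. The mean was 5.22% ± 1.12 (SD, n = 3) in WT and 8.17% ± 0.41 (SD, n = 2) in DKO, both DKO libraries lay above all WT libraries, and in both it was the most used kappa gene. Its near-identical neighbour in sequence, IGKV1-117, was at 232, 375 and 519 in WT compared with 322 and 337 in DKO, with overlap in level and share. Their summed share was 5.89%, 9.05% and 10.6% in WT compared with 11.5% and 12.6% in DKO, which kept the groups apart, while their summed level (702, 1003 and 1209 against 1023 and 1020) overlapped. The pair was thus about as abundant in DKO as in WT replicates 2 and 3, while the sum over all members was lower.

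IGKV1-135, another gene of family 1, was lower in DKO in both level and share. It was at 813, 589 and 494 normalized counts in WT compared with 319 and 304 in DKO, 49.3% of the WT mean. Neither DKO library reached the lowest WT library, and the log2 fold change of −0.99 ± 0.27 (SE) had the smallest unadjusted p among the members in limma and did not pass adjustment over all genes (limma adjusted p = 0.823). Its share was 5.49% ± 1.25 (SD, n = 3) in WT compared with 3.67% ± 0.12 (SD, n = 2) in DKO. Summed with IGKV1-133, the member nearest to it in sequence, the share was 7.00%, 5.42% and 4.47% in WT compared with 3.64% and 4.01% in DKO, still without overlap.

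**Figure D2:**
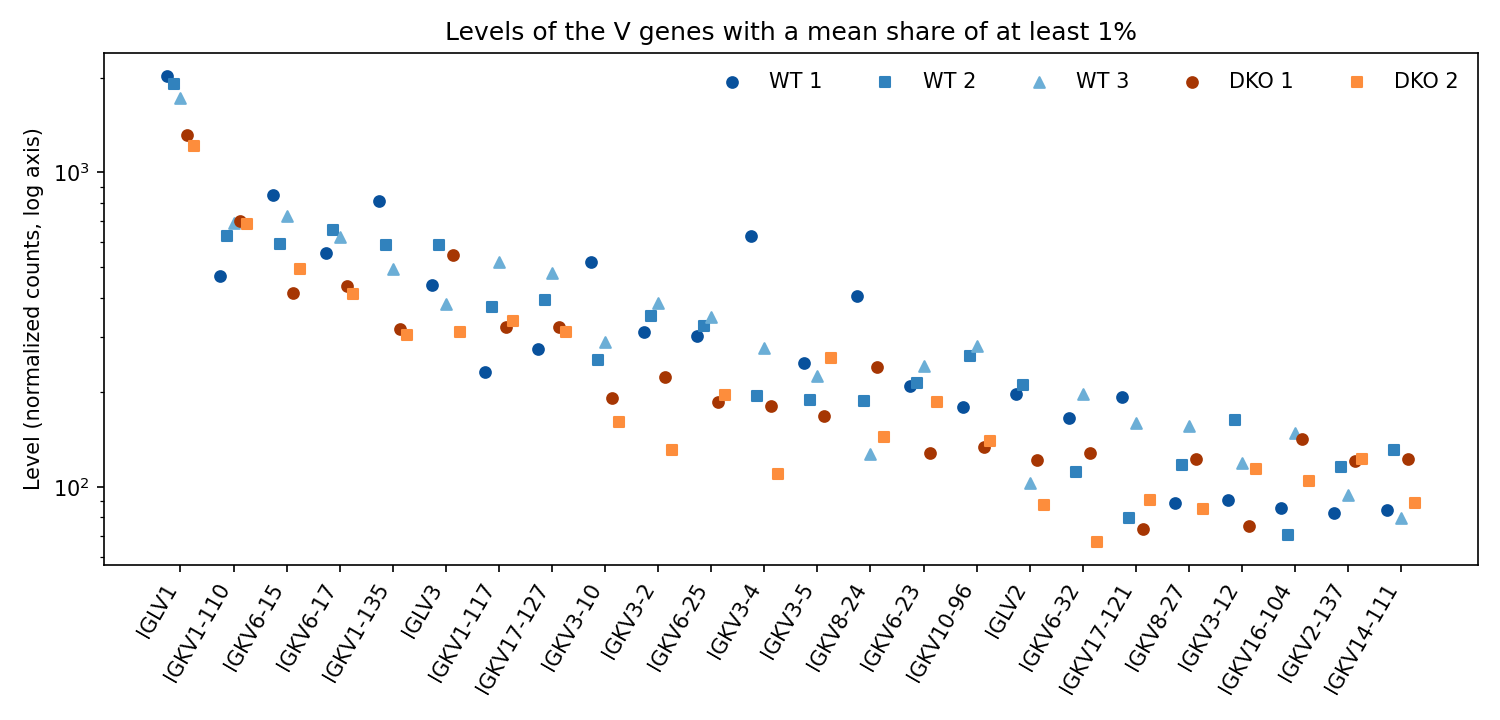
Level in normalized counts (log axis) of the 24 light chain V genes with a mean share of at least 1%, ordered by that share, with 1 point for each of the 3 WT and 2 DKO libraries. IGLV1 stands above the rest at 1214 to 2021; the DKO points lie below the WT points for IGLV1, IGKV6-15, IGKV6-17 and IGKV1-135, whereas for IGKV1-110 they lie at or near the top.

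Family 6 held 3 of the most used kappa genes, and all of these were lower in DKO. IGKV6-15 was at 850, 590 and 726 normalized counts in WT compared with 413 and 492 in DKO (log2 fold change −0.66 ± 0.24). IGKV6-17 was at 556, 655 and 622 in WT compared with 435 and 411 in DKO (−0.53 ± 0.22). IGKV6-25 was at 303, 325 and 346 in WT compared with 186 and 196 in DKO (−0.76 ± 0.25). In each the DKO libraries lay below every WT library, and each had a limma adjusted p of 0.823. IGKV6-23, at 210, 215 and 243 in WT compared with 128 and 186 in DKO, did not overlap either, with a log2 fold change of −0.52 ± 0.30. The less used IGKV6-13 was at 139, 87.7 and 76.9 in WT compared with 36.8 and 54.5 in DKO (−1.11 ± 0.43). As shares, only IGKV6-25 of the 3 most used genes separated the groups (2.54%, 2.93% and 3.03% against 2.09% and 2.42%). Its summed share with IGKV6-17 overlapped (7.21%, 8.85% and 8.49% against 6.98% and 7.51%). The summed level of that pair (859, 980 and 968 against 621 and 607) was lower in DKO without overlap.

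Family 3, which lies at the J end of the locus, was lower in DKO in several genes but varied within WT. IGKV3-2 was at 310, 350 and 385 normalized counts in WT compared with 224 and 131 in DKO (−1.01 ± 0.30, limma adjusted p = 0.823). IGKV3-10 was at 518, 253 and 288 in WT compared with 192 and 161 in DKO (−0.93 ± 0.35). IGKV3-4 was at 629, 194 and 276 in WT compared with 180 and 110 in DKO (−1.19 ± 0.48). None overlapped, but WT replicate 1 was far above the other WT libraries for the last 2 of these genes. IGKV3-5 was at 248, 189 and 226 in WT compared with 168 and 257 in DKO, with overlap. It is 98.1% identical to IGKV3-10. The summed share of both was 6.43%, 3.99% and 4.51% in WT compared with 4.05% and 5.17% in DKO, with overlap. Their summed level (767, 442 and 514 against 360 and 418) was lower in DKO without overlap.

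Genes leading other families showed a mixture of patterns, with IGKV12-44 and IGKV5-43 below a mean share of 1%. IGKV17-127, at 275, 394 and 480 in WT compared with 321 and 311 in DKO, overlapped (−0.24 ± 0.29). It is 98.0% identical to IGKV17-121, which was at 193, 79.4 and 160 in WT compared with 73.6 and 90.9 in DKO. The sum of this pair was not taken, so the overlap of IGKV17-127 alone is uncertain. IGKV8-24 was at 406, 188 and 127 in WT compared with 241 and 144 in DKO, and varied more within WT than between the groups (−0.19 ± 0.48). IGKV10-96 was at 180, 261 and 281 in WT compared with 134 and 140 in DKO, lower without overlap (−0.78 ± 0.31, limma adjusted p = 0.823). IGKV12-44 was also lower without overlap, at 103, 119 and 129 in WT compared with 76.2 and 70.2 in DKO (−0.66 ± 0.34). So was IGKV5-43, at 59.95, 33.0 and 46.1 in WT compared with 28.02 and 29.7 in DKO (−0.62 ± 0.51). It is 99.0% identical to IGKV5-45, which overlapped, and their sum was not taken.

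The leading genes of families 4, 9, 13, 14, 15 and 16 overlapped between the groups. IGKV9-120 had nearly the same mean in both groups, at 45.0, 70.2 and 61.5 normalized counts in WT compared with 49.0 and 68.6 in DKO (0.00 ± 0.44). IGKV13-84 was at 77.1, 96.0 and 110 in WT compared with 78.8 and 85.9 in DKO, and IGKV15-103 at 162, 83.6 and 83.6 in WT compared with 123 and 38.0 in DKO. Their fold changes were −0.18 ± 0.36 and −0.59 ± 0.55. IGKV14-111 was at 84.6, 131 and 79.8 in WT compared with 123 and 89.2 in DKO. IGKV16-104 was at 85.6, 70.2 and 148 in WT compared with 142 and 104 in DKO, and IGKV4-57 at 82.4, 38.2 and 67.3 in WT compared with 63.9 and 104 in DKO. These 3 had positive fitted values, of 0.12 ± 0.38, 0.33 ± 0.41 and 0.45 ± 0.48. IGKV11-125, IGKV18-36 and IGKV7-33 lead their families with 52, 28 and 4 reads over all libraries, too few to compare.

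On the side of higher levels in DKO the values were small. IGKV2-137 was at 82.4, 116 and 94.2 normalized counts in WT compared with 121 and 122 in DKO (log2 fold change 0.33 ± 0.34), and its share was 0.85% ± 0.18 (SD, n = 3) in WT compared with 1.44% ± 0.11 (SD, n = 2) in DKO. IGKV4-59 was at 16.1, 16.5 and 24.0 in WT compared with 39.4 and 32.2 in DKO (0.91 ± 0.60, limma adjusted p = 0.877), and IGKV4-53 at 17.1, 13.4 and 17.3 in WT compared with 34.2 and 19.0 in DKO (0.65 ± 0.67). These 3 did not overlap, and their fold changes did not pass the test. IGKV4-59 is 96.0% identical to IGKV4-70, which was at 4.28, 18.6 and 25.0 in WT compared with 18.4 and 16.5 in DKO. How reads were divided between them is not known and their sum was not taken, so the separation of IGKV4-59 alone is uncertain. IGKV2-109, at 13.9, 79.4 and 44.2 in WT compared with 113 and 43.8 in DKO, and IGKV3-7, at 37.5, 140 and 74.0 in WT compared with 121 and 91.7 in DKO, overlapped.

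Counted over the members, lower levels prevailed although no single gene passed. Of the 78 members with a mean of at least 10 normalized counts, 0 reached an adjusted p under 0.05 in limma (smallest 0.823), in edgeR's quasi-likelihood test (smallest 0.856) or in DESeq2 (smallest 0.134). Over all genes tested, 0% were called by limma and by edgeR and 0.219% by DESeq2. The fitted log2 fold change was below 0 in 56 members and above 0 in 22, so that 71.8% were below 0 against 50% of all genes tested. The median was −0.36, against 0.00 for all genes tested. At an unadjusted limma p under 0.05 there were 10 members lower (12.8%, against 2.37% of all genes tested) and 0 higher (against 3.69%). Those 10 were IGKV1-135, IGKV3-2, IGKV6-25, IGLV1, IGKV6-15, IGKV3-10, IGKV10-96, IGKV6-13, IGKV3-4 and IGKV6-17, and the same 10 were under 0.05 in edgeR and in DESeq2. Over all genes tested, edgeR had 2.29% lower and 3.36% higher at that threshold, and DESeq2 had 3% lower and 3.78% higher. The count of 10 was 3 without DKO replicate 2, 6 without DKO replicate 1 and 6 without WT replicate 1.

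Of these 78 members, the levels of 16 (20.5%) were lower in DKO without overlap, against 11% of all genes tested. Those of 3 (3.85%) were higher without overlap, against 12.5%. Among all 106 members with a read, 19 (17.9%) were lower and 6 (5.66%) higher without overlap, against 7.6% and 11.7% of all rows with a read. Fitted values ran from −1.72 for IGKV3-3, a weakly used gene whose WT level was at 78.4 in replicate 2 and at most 14.99 in the others, to 0.92 for IGKV2-109. The median standard error was 0.52 for members and 0.33 for all genes tested. The 29 members that were not tested, 7 of them pseudogenes, had mean levels of at most 9.66 and together 1.17% of the reads. Their mean was lower in DKO in 17 and higher in 11. Without genes of at least 95% identity to another member, 27 of 41 tested genes were below 0, with a median of −0.20, and 3 were lower at an unadjusted limma p under 0.05.

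**Figure D3:**
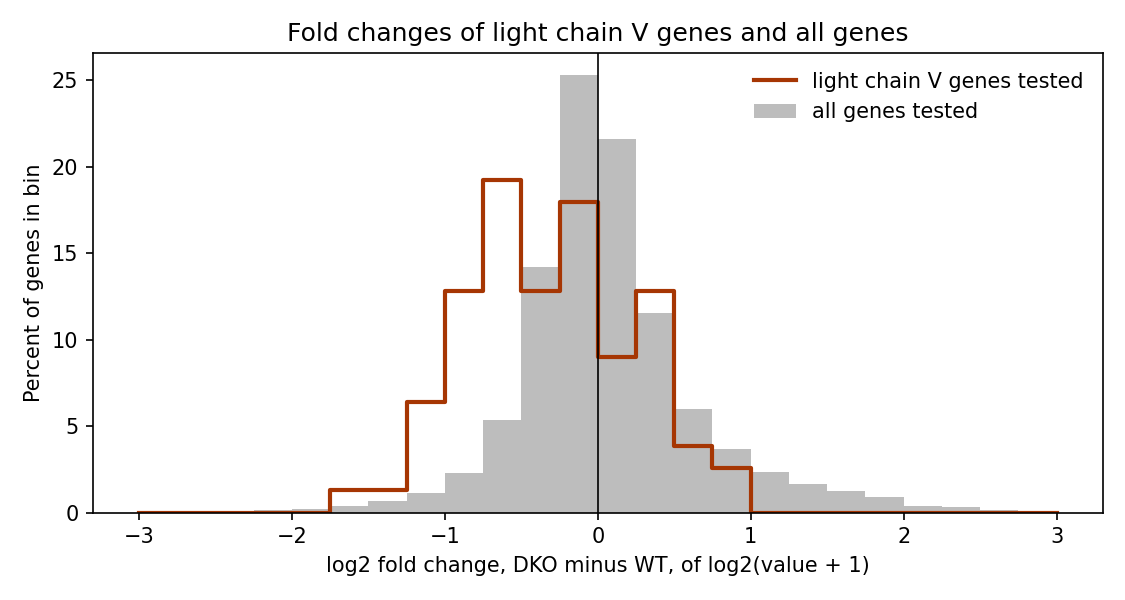
Percent of genes in each bin of log2 fold change (DKO minus WT, of log2(value + 1)), for the 78 light chain V genes tested (line) and for all 13242 genes tested (filled). The light chain V genes are shifted to the left, with a median of −0.36 against 0.00 for all genes.

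Shares do not depend on the scaling of the libraries, but a lower share of some genes raises that of others. They were higher in DKO without overlap for 14 of the 106 members with reads (13.2%) and lower for 7 (6.60%), against 11.7% and 8.11% of 111 heavy chain V genes treated the same way. Both figures were near those of the heavy chain genes. Of the 24 genes with a share of at least 1%, IGKV1-110 and IGKV2-137 were higher, and IGLV1, IGKV1-135, IGKV3-10, IGKV3-2 and IGKV6-25 were lower.

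By family, lambda and kappa families 6, 1 and 3 together held most of the reads. Family 6 held 19.4%, 19.1% and 20.4% in WT compared with 15.8% and 18.5% in DKO, and family 3 held 16.8%, 12.8% and 12.9% in WT compared with 11.8% and 11.9% in DKO. Both were lower in DKO without overlap. Family 1 held 14.0%, 15.4% and 16.2% in WT compared with 16.4% and 17.5% in DKO, higher without overlap, although the lowest DKO library stood only just above WT replicate 3. Family 4, the one with most genes (27 rows), held 5.01%, 3.86% and 5.04% in WT compared with 5.42% and 6.10% in DKO. Family 2 held 1.08%, 2.01% and 1.50% in WT compared with 2.92% and 2.26% in DKO. These 2 were also higher without overlap. The exact permutation test gave p = 0.2 for each of the 5 families, its smallest value, and no family passed adjustment over the 20 families (smallest adjusted p = 0.727). If the groups were alike, about a fraction of 0.2 of families would separate in this way, and 5 of 20 is near that. The number of families without overlap was 8 without WT replicate 1, 8 without WT replicate 3, 11 without DKO replicate 1 and 12 without DKO replicate 2, fewer libraries being easier to separate.

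The remaining families overlapped. Family 8 held 6.08%, 4.43% and 4.91% in WT compared with 6.76% and 5.31% in DKO, and family 17 held 4.24%, 4.87% and 6.25% in WT compared with 4.88% and 5.57% in DKO. Family 10 lay between 2.49% and 3.77%, family 12 between 2.49% and 2.96%, and families 5, 9, 13, 14, 15 and 16 between 0.470% and 1.77% in all libraries. In level, both DKO libraries lay below every WT library for kappa families 1, 3, 6, 10, 12 and 17, out of 19 kappa families. The lambda sum was lower in the same way. Of all single genes tested, 11% were lower without overlap, but family sums mostly pool several genes, so the 2 are unlike measures. Family 3 was at 1997, 1418 and 1476 normalized counts in WT compared with 1046 and 963 in DKO, and family 6 at 2313, 2118 and 2326 against 1408 and 1495. Family 2 was at 128, 223 and 171 in WT compared with 259 and 183 in DKO.

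**Figure D4:**
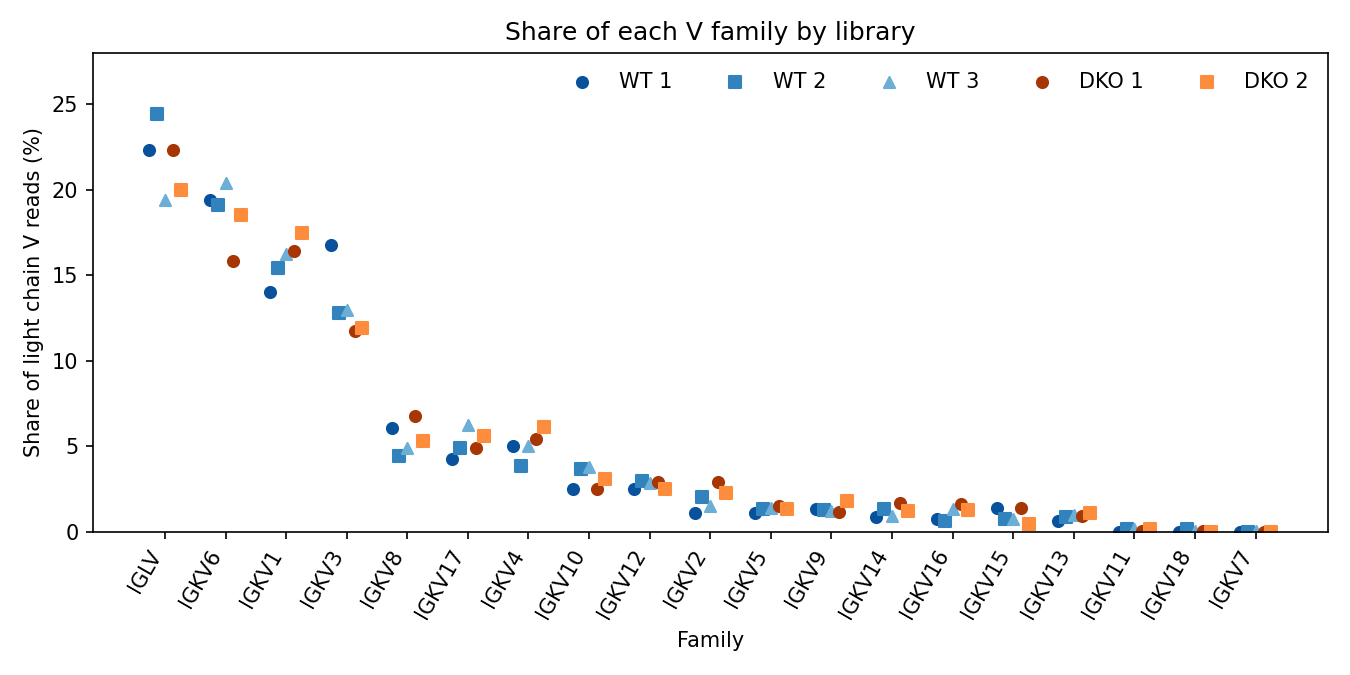
Share of light chain V reads in percent for each of the 19 families with reads, with 1 point per library, ordered by mean share. Families 6 and 3 lie lower in both DKO libraries (15.8% to 18.5% and 11.8% to 11.9%) than in WT, and families 1, 2 and 4 lie higher, by smaller margins.

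Position along the kappa locus was taken from gene order in GENCODE M21. The 52 kappa genes nearer to the J segments held 62.1%, 55.2% and 55.4% of kappa V reads in WT compared with 52.8% and 53.1% in DKO. The groups did not overlap, and the difference was −4.63 percentage points (exact permutation p = 0.2). It was −2.37 points without WT replicate 1, which stood apart from the other WT libraries. The 35 nearest genes gave 55.7%, 49.3% and 48.7% in WT compared with 45.7% and 46.1% in DKO. Among the nearer 52 genes, 30 of 39 tested had a log2 fold change below 0 (median −0.40), and among the farther 52, 23 of 36 (median −0.17). The 40 kappa genes on the plus strand held 61.6%, 64.3% and 62.5% in WT compared with 63.9% and 62.8% in DKO, without a difference between the groups beyond their spread. Across 103 kappa genes with reads, share and distance rank had a Spearman rho of −0.15.

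**Figure D5:**
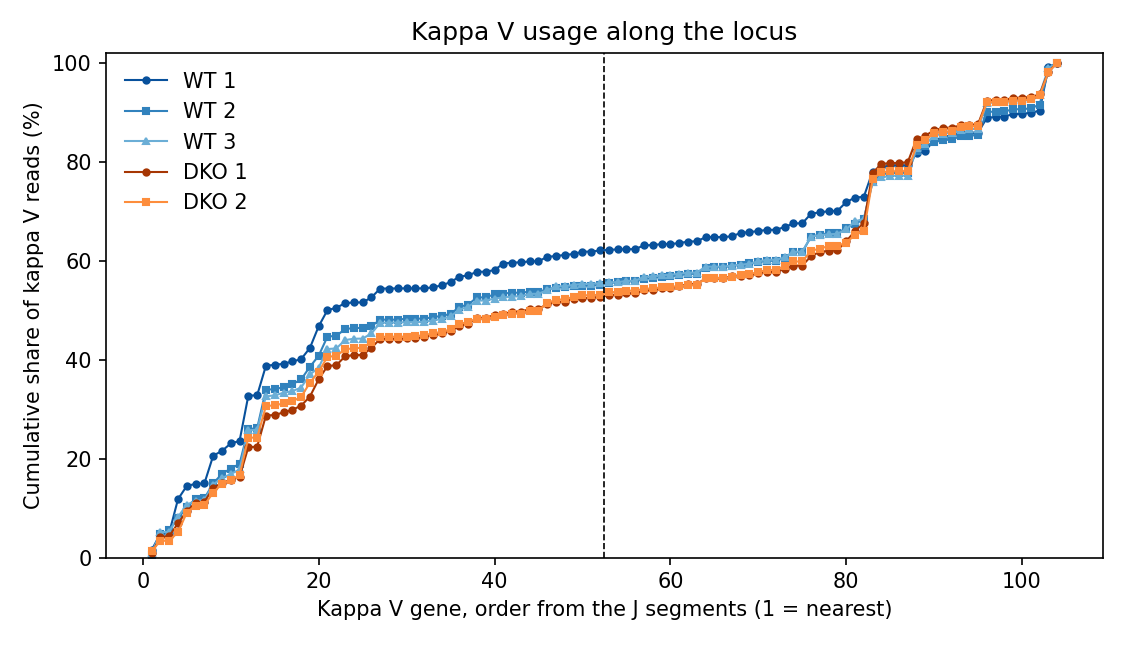
Cumulative share of kappa V reads in percent against gene order from the J segments (1 is nearest), with 1 line per library and a dashed line at the middle of the 104 genes. The DKO lines lie lowest at the middle (52.8% and 53.1%), WT replicates 2 and 3 just above them, and WT replicate 1 at 62.1%.

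The breadth of usage overlapped between the groups by the index planned as the measure of it. The effective number of V genes, as the inverse Simpson index of the shares, was 18.2, 18.6 and 20.9 in WT compared with 21.4 and 20.7 in DKO (exact permutation p = 0.4). Over kappa genes alone it was 24.7, 27.2 and 27.6 in WT compared with 28.9 and 26.5 in DKO. The exponential of the Shannon entropy, which gives rare genes more weight, was 34.2, 35.6 and 37.9 in WT compared with 39.2 and 38.4 in DKO, higher in DKO without overlap (exact permutation p = 0.2). Pairs of libraries shared 81.4% to 88.4% of their usage within WT, 87.7% within DKO and 78.4% to 88.3% between the groups, as the sum over genes of the smaller of the 2 shares. The ranges within WT and between the groups overlapped.

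Of the other genes of the light chain pathway that were tested, 0 had an adjusted limma p under 0.05 and 0 were under an unadjusted p of 0.05. Of the 7 constant and joining rows, 6 were lower and 1 higher (median −0.23). RAG1, a subunit of the V(D)J recombinase, was listed at 0, 10.3 and 0 over the WT libraries, and at 15.8 and 14.9 over the DKO libraries, levels of 18 reads or fewer that were not tested, and its partner RAG2 had 2 reads, all in WT replicate 2. Of the 4 genes listed with the surrogate light chain of precursor B cells, VPREB3 alone was tested (−0.14 ± 0.30). It ran from 458 to 875 normalized counts, whereas VPREB1, VPREB2 and IGLL1 were at 6.19 or less in every library. VPREB3 therefore does not stand for the others. Of 16 transcription factors bound at light chain enhancers, 7 were lower and 9 higher (median 0.05). SPIB was at 15184, 15402 and 18303 in WT compared with 13586 and 11313 in DKO, lower without overlap (−0.39 ± 0.22, limma adjusted p = 0.864), and IRF4, which binds light chain enhancers beside such factors, was at 2933, 3095 and 1781 in WT compared with 2119 and 1373 in DKO, with overlap (−0.57 ± 0.29, limma adjusted p = 0.859). PAX5, which keeps B cell identity, was at 4140, 5137 and 2432 in WT compared with 5764 and 5667 in DKO, higher without overlap (0.62 ± 0.30). Of the 16 factors, 2 were lower without overlap (SPIB and TCF3) and 3 higher (PAX5, POU2F2 and FOXO1), where 11% and 12.5% of all genes tested were so.

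Plasma cells hold far more immunoglobulin RNA than other B cells, so their markers are given beside the light chain V level. In bulk samples fewer cells of a type and less RNA per cell cannot be told apart. The 8 plasma cell markers summed to 16360, 12205 and 14850 in WT compared with 11093 and 12992 in DKO, with overlap. Of the 7 tested, 6 were lower in DKO (median −0.24), where 50% of all genes tested were below 0. Among the 6, SLAMF7 was almost unchanged (−0.00013 ± 0.23) and IGJ overlapped (−0.24 ± 0.27), while MZB1 was at 0.0031 ± 0.22. XBP1, which drives secretion, was at 2100, 1911 and 2669 in WT compared with 1459 and 1891 in DKO, lower without overlap, and PRDM1, the factor that starts plasma cell differentiation, was at 926 in WT replicate 1 and at 113 to 162 in the other 4 libraries. Of the defining surface markers, SDC1 lay between 2.14 and 31.0 and TNFRSF17 was at 6.42 in WT replicate 1 and at 0 elsewhere. WT replicate 1 was also the library with the highest light chain V level and with high IGKV3-4, IGKV3-10 and IGKV8-24; the part of plasma cell RNA in these results was not tested. Without WT replicate 1 the log2 difference of the summed light chain V level was −0.41, and 54 of the tested members were below 0. Marginal zone markers summed to 4894 to 9022 and myeloid markers to 110 to 1033 over the 5 libraries, with overlap between the groups.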

How the data were processed

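Per the labels' protocols, RNA of the 3 WT and 2 DKO samples was amplified (Ovation RNA-Seq System V2) before paired sequencing of 50 bases from each end on a HiSeq2500. Tools in the submitters' processing notes are CASAVA 1.8.2, then TopHat2 (2.0.4) and also Cufflinks (version 2.0.2), with mm9 as the genome build. How reads were counted, with which annotation, whether strand was used and how reads that match several genes were treated is not given in the sources used here. In the table that the authors deposited, each library has a signal per gene, called normalized counts here: every value was a whole number of reads (within 0.02) times 1 factor per library, of unstated origin. Shares and intervals use those reads.

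Genes with a mean of at least 10 were tested with limma 3.58.1 (R 4.3.3; trend, log2(value + 1), two-sided, Benjamini-Hochberg over 13242 genes, threshold 0.05). This scale understates changes of low genes. Single values per library were tested with an exact two-sided permutation test (scipy 1.17.1). Alternatives were edgeR (4.0.16) and, also on those reads, DESeq2 (1.42.0), beside those named in the closing section. The limma test was checked on simulated counts and the permutation test on a constructed case of separated groups. Sequence, order, strand and type of V genes come from GENCODE M21 by name, a later annotation than the build used for the reads. Sequence comparisons used Biopython 1.88.

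The members and lists were chosen with earlier results of these data known. Named genes were RELB, NFKB2, the 15 members with the largest mean share, the leading member of each family, all lambda V genes, the 6 tested members per direction with the smallest limma p, IGKC, IGLC2, RAG1, RAG2, IRF4 and SPIB. IGKV1-133, IGKV3-3, IGKV6-13, IGKV19-93 where singled out, RGS13, the J rows and the other pathway and marker genes were named after their values were seen. A marker gene of the sorted cells is not reported here.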

Additional observations from a re-analysis of the deposited data

How the results depend on the processing

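The lower summed light chain V level kept its direction under TMM scaling, the mitochondrial correction, the replicate block and without each library in turn (log2 difference −0.50 to −0.37). The difference in lambda share was −0.90 percentage points and lay between −2.22 and 0.29 without 1 library, turning positive without WT replicate 2 or DKO replicate 2. With constant rows in place of V rows the quantity was IGLC2 as a share of IGLC2 and IGKC, which leaves out the constant regions joined to IGLV1, and its difference was 0.022. The number of families without overlap was 5. It was 6 to 12 without 1 library, and 12 without WT replicate 2 and DKO replicate 1 together. The latter alternative was chosen after seeing the data. Fewer libraries make separation easier. Under the replicate block, 11 families differed in the same direction between the number 1 libraries and between the number 2 libraries. That is another measure than groups without overlap. The members lower at an unadjusted limma p under 0.05 numbered 10, and 3 to 10 without 1 library (3 without DKO replicate 2, 6 without WT replicate 1 and 6 without DKO replicate 1). They numbered 3 without near-identical genes, also chosen afterwards, 41 genes being tested in place of 78. Of the pathway list, 0 were under an unadjusted p of 0.05, against 1 under the block and 0 to 2 without 1 library. The share of members below 0 lay between 64.1% and 76.9% over all fits.

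Replicate numbers 1 and 2 occur in both groups, but nothing in the labels pairs them. Deviations from the group means correlated with r = 0.005 for number 1 and −0.28 for number 2. The values were 0.28 for WT replicate 2 with DKO replicate 1 and 0.33 for WT replicate 3 with DKO replicate 2. With 2 DKO libraries the deviations within DKO are mirror images, so −0.28 and 0.28 are not separate evidence on pairing. With the replicate block 7 members were under an unadjusted p of 0.05, 0 passed adjustment, 36 genes of all tested passed, and NFKB2 reached −2.08 with an adjusted limma p of 0.0101. The block's own term for number 3 takes up WT replicate 3. Its differences therefore equal those without WT replicate 3 (lambda share −2.22 percentage points in both), so it is not a separate check. Few libraries are left to estimate the spread, which limits these counts and p-values.

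Single genes turned direction as follows, and the cause was not tested. Under the block IGKV1-117 was at 0.16 and IGKV14-111 at −0.0096. IGKV9-120, near 0, was at −0.092 with quantile scaling, −0.020 with TMM and −0.0089 in edgeR. Without 1 library, or WT replicate 2 and DKO replicate 1 together, values ran from −0.81 to 0.14 for IGLC2 (above 0 without DKO replicate 2), from −0.57 to 0.24 for IGLV3 (WT replicate 2 or DKO replicate 2), from −0.42 to 0.16 for IGKV1-117 (WT replicate 3), and from −0.38 to 0.23 for IGKV3-5 (WT replicate 1, DKO replicate 1 or both libraries). They ran from −0.66 to 0.27 for IGKV8-24 (WT replicate 1 or DKO replicate 2) and from −1.59 to 0.24 for IGKV15-103 (DKO replicate 2). Values above 0 turned negative for IGKV9-120 without WT replicate 1 or DKO replicate 2 (−0.24 to 0.38), for IGKV14-111 without WT replicate 3 or DKO replicate 1 (−0.10 to 0.35) and for IGKV16-104 without both libraries (−0.11 to 0.64). Depth limits single shares: the widest 95% interval of a share extended 0.714 percentage points to a side.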
